A study of Mus musculus with 8 samples.

Results

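The genes described here are the transcription factor p53, its regulators and the genes it is known to switch on. Of 37 genes listed by symbol (Trp53, the gene of p53 itself, together with 4 regulators and a set of targets), 34 had a named probe set among the 19505 named genes of the arrays, and each of the 34 had exactly 1 probe set, so the rule of taking the brightest probe set chose nothing. Trp53, Bax and Fdxr were not matched to a named probe set and were not analysed here. The list was drawn up with an earlier reading of the same hBD-2 to PBS contrast in view, in which Phlda3, Zmat3, Ei24 and Ccng1 were higher. Counts over the list are therefore descriptions, p-values are those of the fit over all genes, and neither is independent evidence of the direction of the list.

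Each group held 4 one-colour arrays of splenic T cells from male wild-type C57BL/6 mice, a mixture of CD4 and CD8 cells isolated from spleens of 4 animals. The cells were kept for 48 h with beads coated with anti-CD3 and anti-CD28, which stimulate the T cell receptor and its co-receptor, and either with human beta-defensin-2 (hBD-2, 60 µL/mL as the labels give it, a volume whose peptide mass is not given) or with phosphate-buffered saline (PBS), the vehicle. Both groups were thus stimulated, and no unstimulated or irradiated cells were compared here. The mouse behind each array is not given in the labels, so p-values measure the spread between arrays, which may be partly technical. Values are log2 expression values made by the authors with RMA, which corrects background, normalizes arrays to each other and combines the probes of a probe set, and a difference of 1 is a doubling.

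The 10 measured T cell markers averaged log2 values of 10.35 to 10.44 on the hBD-2 arrays and 10.32 to 10.41 on the PBS arrays, and none of them passed the test. When the arrays were levelled again by quantile normalization, cyclic loess or removal of a level trend, Cd247, the zeta chain of the T cell receptor complex, passed as higher each time, and 9, 9 and 8 of the 10 had log2 fold changes above 0, against 5 as deposited. The interquartile range of all values on an array was 3.45 to 3.64 with hBD-2 and 3.64 to 3.76 with PBS. The 5 measured B cell markers averaged 4.68 to 6.29 with hBD-2 and 4.60 to 5.49 with PBS, with replicates 2 and 4 the highest in each group. None passed, while all 5 had log2 fold changes above 0, as 53.9% of all genes had, with a median of 0.50. The 5 mast cell and basophil markers averaged 4.55 to 5.05 with hBD-2 and 4.41 to 4.54 with PBS, and Cpa3 and Fcer1a rose. Kit, of the same list, lay the other way without passing, at 5.97 ± 0.453 with hBD-2 and 6.64 ± 0.192 with PBS (limma adjusted p = 0.0744). The 6 myeloid markers averaged 4.07 to 4.42 with hBD-2 and 4.11 to 4.39 with PBS. Of these Itgam fell, while 4 of the 6 had log2 fold changes above 0, among them Lyz2 at 0.52 (limma adjusted p = 0.287) and Cd14 at 0.32 with groups that did not overlap (limma adjusted p = 0.0740). The 2 measured erythroid markers averaged 4.97 to 5.13 with hBD-2 and 4.68 to 4.91 with PBS, and Klf1 rose, a call lost with each of the 3 ways of levelling. The 5 dendritic markers averaged 3.76 to 4.04 with hBD-2 and 3.53 to 3.82 with PBS, the 3 natural killer markers averaged 2.92 to 3.22 with hBD-2 and 3.02 to 3.25 with PBS, and no gene of either list passed. The part of these markers in the results below was not tested.

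p53 is kept at a low level by the ubiquitin ligase Mdm2 and its partner Mdm4, and is released when DNA is damaged, nucleotides run short, ribosomes fail to assemble or oncogenes drive division. It then binds paired copies of a palindromic ten-letter element and switches on genes that hold the cell cycle, repair DNA, change metabolism or start cell death. In T cells it restrains clonal expansion and is itself held down after stimulation through the T cell receptor.

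With hBD-2, 6 of the 34 measured genes rose and none fell (limma fitted across all genes, Benjamini-Hochberg adjusted p under 0.05, two-sided). They were Phlda3, Dglucy, Zmat3, Psrc1, Ei24 and Ccng1, and they rose between 1.35-fold (Ccng1) and 2.22-fold (Phlda3). Over all 19505 genes, 0.800% passed as higher, 3.66% as lower and 4.46% in either direction. Among the members 17.6% passed as higher, a share that the choice of the list with results in view does not allow to be read as evidence. A positive log2 fold change, past the threshold or not, was found for 28 of 34 members, against 53.9% of all genes, and the median was 0.16 for the members, against 0.02 for all genes. In whole-culture RNA, a larger share of cells carrying a transcript and more of it per cell cannot be told apart.

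**Figure D1:**
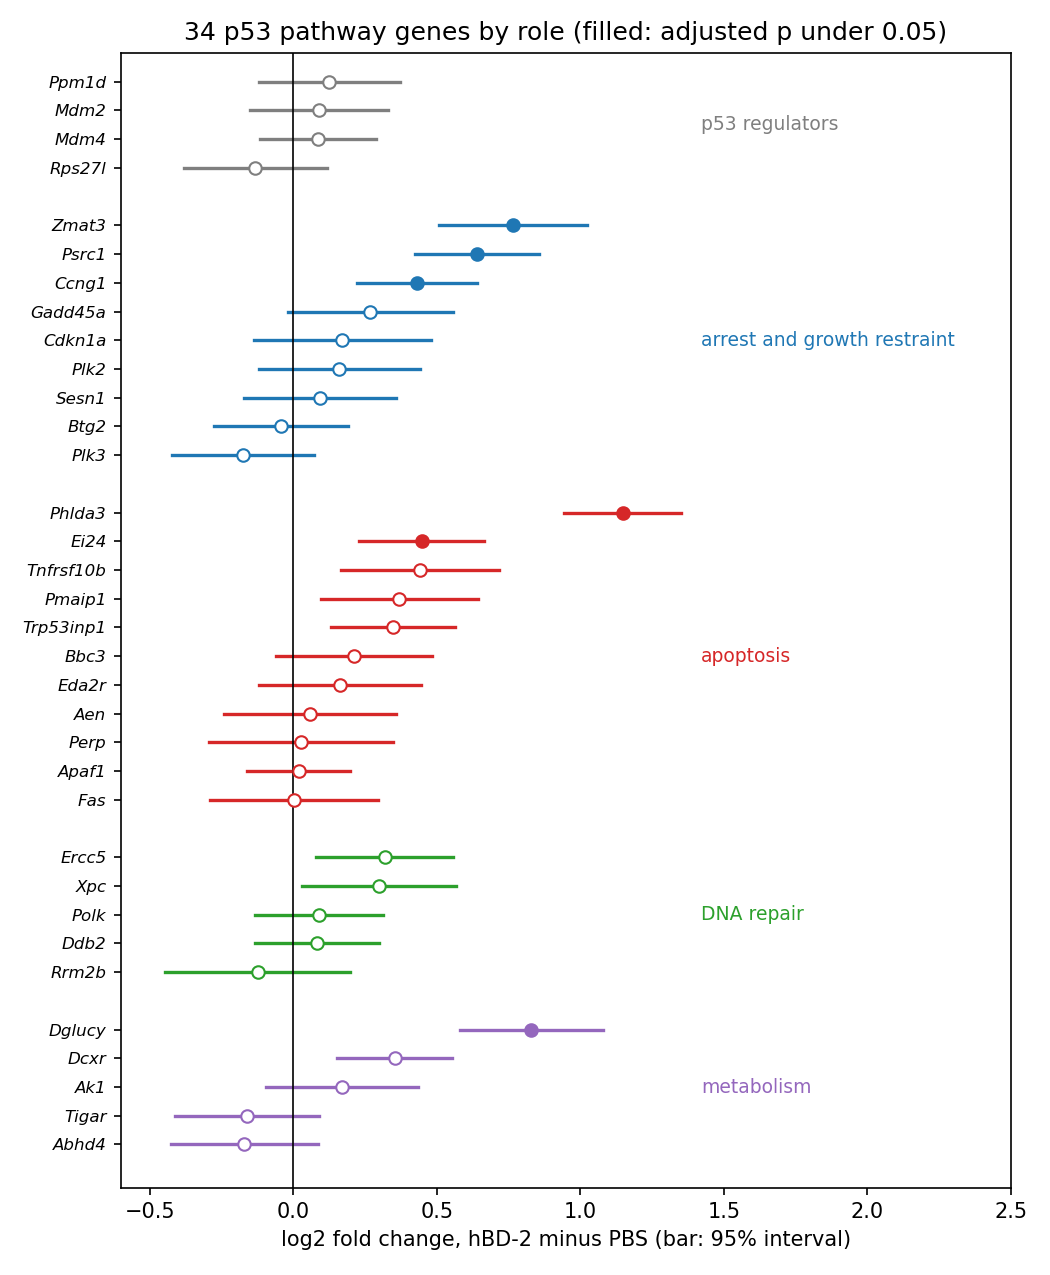
Log2 fold change (hBD-2 minus PBS, x axis) of each measured gene with its 95% interval from the limma fit, grouped by role from top to bottom and by size within a role. Filled points are the 6 genes with an adjusted p under 0.05, all to the right of 0, led by Phlda3 at 1.15. The 4 regulators of p53 all have intervals that include 0.

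None of the 4 regulators of p53 passed the test, and all their groups overlapped. Mdm2, itself a target of p53 in the loop that limits it, had log2 values of 9.66, 9.61, 9.25 and 9.32 on hBD-2 arrays 1 to 4, against 9.44, 9.34, 9.32 and 9.40 on the PBS arrays. The hBD-2 arrays lay on both sides of the PBS values, replicates 1 and 2 above them all and replicate 3 below them all. The mean was 9.46 ± 0.206 with hBD-2 and 9.37 ± 0.0548 with PBS (SD, n = 4 arrays each), and the 95% interval of the ratio of hBD-2 to PBS ran from 0.900 to 1.26 (limma adjusted p = 0.682). Mdm4, which holds p53 inactive, had a log2 fold change of 0.09 (SE 0.0919). For Ppm1d, the phosphatase Wip1 that switches the damage signal off, it was 0.12 (SE 0.112). For Rps27l, a ribosomal protein paralogue that binds Mdm2, it was -0.13 (SE 0.114). Their limma adjusted p-values were 0.534 to 0.625. Rps27l probes could also meet transcripts of its close paralogue, and this was not tested.

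Among the genes listed here under arrest and growth restraint, 3 of 9 rose, and Cdkn1a was not one of them. Zmat3 encodes a zinc-finger RNA-binding protein. It had log2 values of 7.72, 7.38, 7.20 and 7.47 with hBD-2, against 6.52, 6.76, 6.72 and 6.70 with PBS. The groups did not overlap, and the lowest hBD-2 array stood 0.44 above the highest PBS array. Its mean was 7.44 ± 0.216 with hBD-2 and 6.68 ± 0.111 with PBS (0.77 ± 0.118 as log2 fold change ± SE, adjusted p = 0.00496 from limma).

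Psrc1, a microtubule-binding protein of the mitotic spindle, had log2 values of 7.67, 7.57, 7.66 and 7.43 with hBD-2, against 6.97, 6.96, 7.07 and 6.78 with PBS. Every hBD-2 array was above every PBS array. The rise was 1.56-fold (0.64 ± 0.0988 as log2 fold change ± SE, adjusted p = 0.00504 from limma).

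Ccng1, the gene of cyclin G1, was the brightest of the 34 genes. Its log2 values were 10.70, 10.69, 10.43 and 10.53 with hBD-2, against 10.15, 10.16, 10.07 and 10.24 with PBS. The groups did not overlap, with a gap of 0.19 between them. It rose 1.35-fold (0.43 ± 0.0955 as log2 fold change ± SE, adjusted p = 0.0297 from limma). The call was lost without hBD-2 replicate 2 or 4 or any single PBS array (highest limma adjusted p = 0.0831, log2 fold changes 0.39 to 0.48 over all 8 omissions).

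Cdkn1a encodes p21, the inhibitor of cyclin-dependent kinases through which p53 stops the cycle. It had log2 values of 9.33, 9.40, 8.89 and 9.02 with hBD-2, against 9.15, 9.18, 8.76 and 8.85 with PBS. The groups overlapped widely, and in each of them replicates 1 and 2 were above replicates 3 and 4. For every replicate number the hBD-2 array was above the PBS array, though it is unknown whether the numbers pair arrays. With the replicate number as a block, the SE was smaller than without it, and Cdkn1a still did not pass (limma adjusted p = 0.277). The mean was 9.16 ± 0.244 with hBD-2 and 8.99 ± 0.214 with PBS, and the ratio of hBD-2 to PBS had a 95% interval of 0.910 to 1.39 (limma adjusted p = 0.512). A rise of the size seen for Phlda3 lies outside that interval, while one of the size seen for Ccng1 lies inside it.

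The other 5 genes of this role did not pass. Gadd45a, a damage-inducible stress protein, was at 6.78, 6.60, 7.27 and 6.96 with hBD-2, against 6.67, 6.68, 6.64 and 6.53 with PBS, so that replicate 3 carried the highest value and replicate 2 lay within the PBS range. Its log2 fold change was 0.27 (SE 0.132). The polo-like kinase genes Plk2 and Plk3 had log2 fold changes of 0.16 and -0.17. Sesn1, a sestrin that restrains the growth kinase mTORC1, was at 0.09 and Btg2, an anti-proliferative adaptor, at -0.04.

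**Figure D2:**
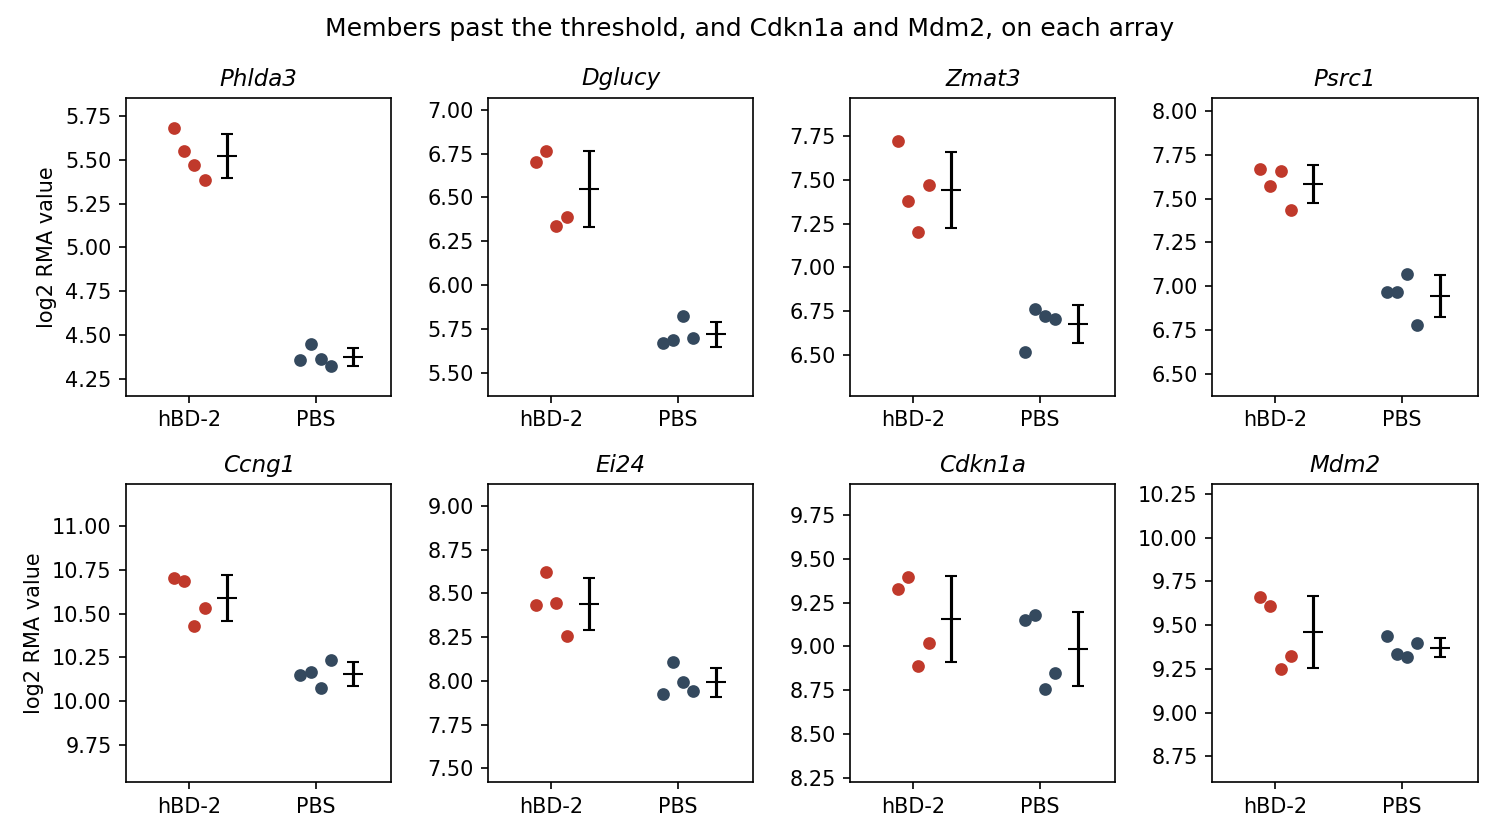
Log2 RMA value (y axis, equal span in every panel) of the 6 genes past the threshold and of Cdkn1a and Mdm2 on each array, with hBD-2 on the left and PBS on the right. Points are arrays, and the bars beside them are the mean and SD of 4 arrays. In the first 6 panels the groups are apart, by 0.94 log2 units for Phlda3 and 0.15 for Ei24, and in the panels of Cdkn1a and Mdm2 they overlap.

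Of 11 genes linked to apoptosis, 2 rose, and all 11 had log2 fold changes above 0. Phlda3 encodes a small pleckstrin-homology protein that competes with the survival kinase Akt for membrane lipids. Its log2 values were 5.68, 5.55, 5.47 and 5.39 with hBD-2, against 4.36, 4.45, 4.36 and 4.32 with PBS. Every hBD-2 array lay at least 0.94 above every PBS array, the widest gap among the 34 genes. The fold change was 2.22, with a 95% interval of 1.92 to 2.55 (1.15 ± 0.0934 as log2 fold change ± SE, adjusted p = 0.000165 from limma), and it was rank 2 of all 19505 genes by size of rise. Its mean over the 8 arrays was 4.95, below the median gene of the arrays at 5.45.

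Ei24, an endoplasmic reticulum protein also called PIG8, had log2 values of 8.43, 8.62, 8.44 and 8.26 with hBD-2, against 7.93, 8.11, 7.99 and 7.94 with PBS. The groups were apart by 0.15. It rose 1.36-fold (0.45 ± 0.0999 as log2 fold change ± SE, adjusted p = 0.0309 from limma), the gene nearest to the threshold from inside. The call was lost without hBD-2 replicate 2 or 3 or any single PBS array (highest limma adjusted p = 0.0912).

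A pair of stress and death genes stood apart between the groups without passing. Tnfrsf10b, the mouse receptor for the death ligand TRAIL, was at 7.23, 7.07, 6.99 and 7.24 with hBD-2, against 6.89, 6.80, 6.34 and 6.72 with PBS. Its log2 fold change of 0.44 was close to that of Ei24, with a wider spread (SE 0.126, adjusted p = 0.0711 from limma). Trp53inp1, a stress-induced nuclear protein, was at 8.86, 8.74, 8.72 and 8.62 with hBD-2, against 8.33, 8.26, 8.57 and 8.38 with PBS (0.35 as log2 fold change, adjusted p = 0.0703 from limma). Both genes passed when quantile normalization was repeated (limma adjusted p = 0.0376 for Tnfrsf10b and 0.0322 for Trp53inp1) and with 2 other ways of levelling the arrays. Neither passed with any single array left out (lowest limma adjusted p = 0.0848 for Tnfrsf10b and 0.0526 for Trp53inp1).

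The BH3-only genes, whose proteins release the mitochondrial death programme, had values on the same side. Pmaip1 (Noxa) was at 5.30 ± 0.158 with hBD-2 and 4.93 ± 0.218 with PBS (limma adjusted p = 0.115), and Bbc3 (Puma) at 6.36 ± 0.143 with hBD-2 and 6.15 ± 0.224 with PBS (limma adjusted p = 0.343). In both genes the groups overlapped. Fas, the death receptor of activated T cells, was at 7.57 ± 0.292 with hBD-2 and 7.56 ± 0.0759 with PBS, and its ratio of hBD-2 to PBS had a 95% interval of 0.817 to 1.23. Apaf1, the scaffold of the apoptosome, had the smallest SE of the 34 genes (0.0820), at 7.68 ± 0.0479 with hBD-2 and 7.66 ± 0.0304 with PBS, with an interval of 0.895 to 1.15. Aen, an apoptosis-enhancing nuclease, had a log2 fold change of 0.06, and Perp, a membrane protein, one of 0.03. Eda2r, a receptor of the TNF family, averaged 2.96, which is below the lower quartile of every array, so that a change there may not show.

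None of the 5 DNA repair targets passed, and 2 of them came nearest. Ercc5, the repair endonuclease XPG, was at 8.31 ± 0.143 with hBD-2 and 7.99 ± 0.153 with PBS (0.32 as log2 fold change, adjusted p = 0.119 from limma). Xpc, the damage sensor of nucleotide excision repair, was at 7.47 ± 0.224 with hBD-2 and 7.17 ± 0.137 with PBS (0.30 as log2 fold change, adjusted p = 0.184 from limma). Ddb2, which also recognises damaged bases, and Polk, a translesion polymerase, had log2 fold changes of 0.08 and 0.09. For Rrm2b, the p53-inducible subunit of ribonucleotide reductase, the value was -0.12, and its hBD-2 arrays spread from 5.62 to 6.35 around PBS arrays at 5.92 to 6.22.

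Among 5 metabolic targets, 1 rose. Dglucy encodes D-glutamate cyclase, a mitochondrial enzyme that breaks down D-glutamate. Its log2 values were 6.70, 6.77, 6.34 and 6.39 with hBD-2, against 5.67, 5.69, 5.83 and 5.70 with PBS. The groups were apart by 0.51, the second widest gap of the list. The rise was 1.78-fold (0.83 ± 0.114 as log2 fold change ± SE, adjusted p = 0.00261 from limma).

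Dcxr, L-xylulose reductase, was the gene nearest to the threshold from outside. Its hBD-2 arrays were nearly identical, at 6.97, 6.94, 6.96 and 6.98, against 6.79, 6.54, 6.59 and 6.51 with PBS, and the groups did not overlap (0.35 ± 0.0919 as log2 fold change ± SE, adjusted p = 0.0526 from limma). It passed under every one of the 3 ways of levelling the arrays (limma adjusted p = 0.0267 with quantile normalization). In none of the 8 omissions of a single array did it pass (limma adjusted p = 0.0540 to 0.140). Tigar, a fructose bisphosphatase that slows glycolysis, had a log2 fold change of -0.16. For Abhd4, a lipase of N-acyl phospholipids, it was -0.17, and for Ak1, an adenylate kinase, 0.17, and all 3 had overlapping groups.

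**Figure D3:**
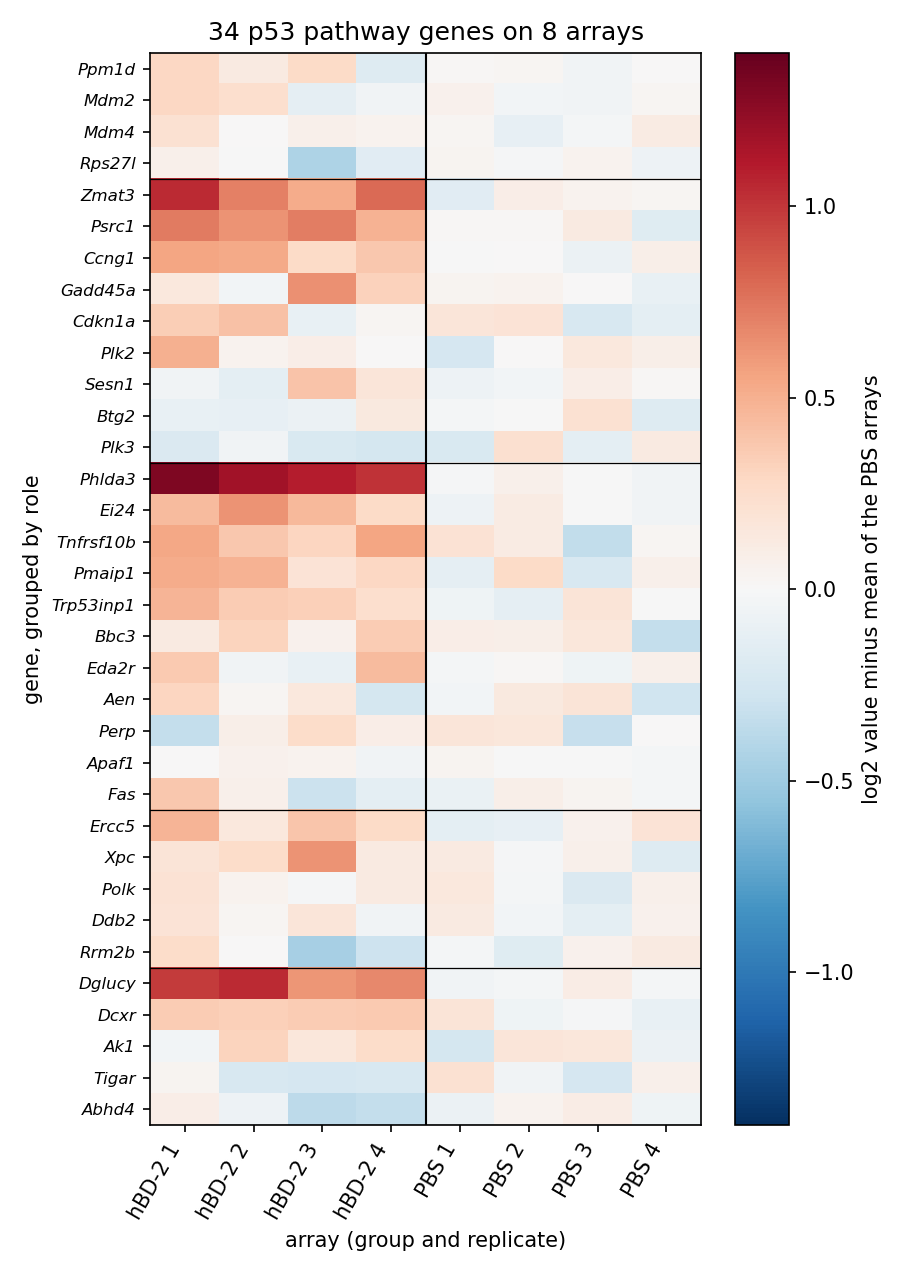
Log2 value of each measured gene (rows, grouped by role) on each array (columns, hBD-2 left of the line and PBS right), minus the mean of the 4 PBS arrays. Red is above and blue below that mean. The rows of Phlda3, Dglucy, Zmat3 and Psrc1 are red on all 4 hBD-2 arrays, while Mdm2, Cdkn1a and Fas are red on some hBD-2 arrays and blue on others.

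Across the list, 10 genes had every hBD-2 array above every PBS array and none had the reverse, against 5.51% and 9.36% of all genes. These were the 6 called genes together with Trp53inp1, Tnfrsf10b, Dcxr and Xpc, the last by only 0.0019. The hBD-2 arrays differed among themselves. Averaged over the 6 called genes, arrays 1 to 4 lay 0.84, 0.78, 0.61 and 0.60 above the PBS mean, while the PBS arrays lay between -0.05 and 0.05. These genes were called on the same arrays and the PBS mean was the reference, so the gap between groups follows from that choice. The SD was larger with hBD-2 than with PBS for 21 of 34 members, or 61.8%, against 59.8% of all genes.

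Spread over brightness, the risers did not share a level. Their means over the 8 arrays ran from 4.95 for Phlda3 to 10.37 for Ccng1, and 30 of the 34 members were brighter than the median gene. The narrower range of values on the hBD-2 arrays ran alongside these rises, and its part in them was not tested. When the arrays were levelled again by quantile normalization, cyclic loess or removal of each array's level trend, all 6 genes kept their calls, 9 members passed each time, and none passed as lower. In that order of methods the log2 fold change of Phlda3 moved from 1.15 to 1.09, 1.07 and 1.08. That of the brighter Ccng1 moved from 0.43 to 0.50, 0.51 and 0.51. Over all genes the number that passed as higher was also larger, at 234, 224 and 221 in that order of methods, against 156 as deposited, and the number lower was 506, 568 and 571, against 713.

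**Figure D4:**
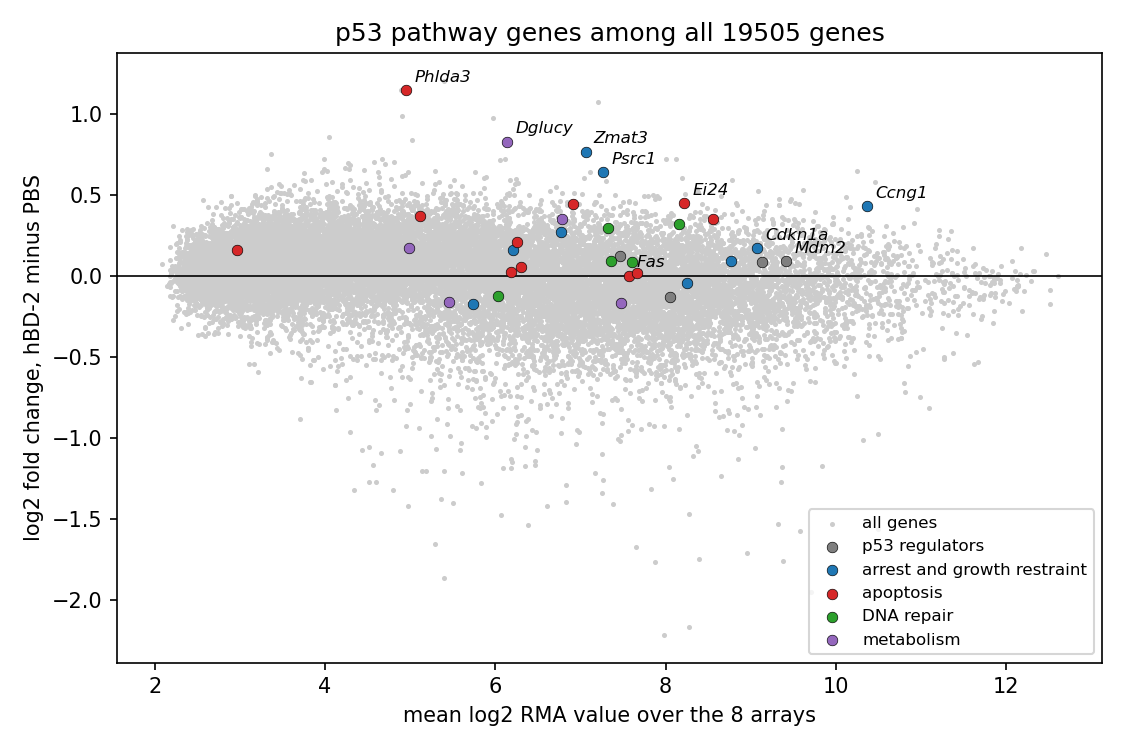
Log2 fold change (hBD-2 minus PBS, y axis) against mean log2 RMA value over the 8 arrays (x axis) for all 19505 genes in grey and the 34 members in colour by role. Phlda3, Dglucy, Zmat3 and Psrc1 lie near the upper edge of the cloud, and Cdkn1a, Mdm2 and Fas lie close to 0.

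The promoters of the list were set beside these values. RefSeq windows from 250 bases before to 50 bases after an annotated start (build GRCm38.p6) were at hand for 26 of the 34 genes, and Zmat3 was among the 8 without one. They were searched for the p53 consensus half-site, a palindrome of 10 letters that reads alike on both strands, with no mismatch allowed. A full site was taken as a pair of decamers 0 to 13 bases apart, each with the invariant C and G of the core, with at most 2 mismatches in the pair, and decamers of different pairs may overlap. A half-site was found in 11 of the 26 genes (42.3%), against 8.55% of 15691 measured genes with a window, and a full site in 5 (19.2%), against 4.33%. The list holds genes that p53 is known to switch on, so a larger share of matches may come with that choice. It is not a result of these arrays. The 26 genes had 39 windows, more per gene than the 19143 windows of the 15691 genes. The half-site was present in 2 of 5 called genes with a window, Ccng1 and Ei24, and in 9 of 21 genes that were not called, a similar share.

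Of the genes that rose, Ccng1 has a full site of adjoining decamers with 1 mismatch, overlapped by a pair with 2 mismatches and a spacer of 5 bases, in its window chr11:40755237-40755536 (- strand), and Ei24 a half-site in chr9:36797285-36797584 (- strand), 10 bases before the start. They are shown, 5′ to 3′ on the strand of the gene, with the decamers of full sites and half-sites in capitals, because these are the 2 risers with a match.
Ccng1: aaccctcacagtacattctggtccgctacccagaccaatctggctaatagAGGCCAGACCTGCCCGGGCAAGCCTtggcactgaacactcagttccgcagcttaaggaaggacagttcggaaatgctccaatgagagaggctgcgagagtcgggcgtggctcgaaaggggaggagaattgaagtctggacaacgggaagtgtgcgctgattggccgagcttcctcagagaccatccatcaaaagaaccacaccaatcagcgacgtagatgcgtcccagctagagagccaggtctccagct
Ei24: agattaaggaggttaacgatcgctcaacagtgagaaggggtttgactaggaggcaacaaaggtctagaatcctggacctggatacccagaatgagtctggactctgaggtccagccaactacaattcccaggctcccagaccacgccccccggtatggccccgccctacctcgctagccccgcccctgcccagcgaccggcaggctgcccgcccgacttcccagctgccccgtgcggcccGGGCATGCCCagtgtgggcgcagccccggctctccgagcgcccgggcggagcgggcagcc
Both genes were among the smaller risers, at 1.35-fold and 1.36-fold.

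Cdkn1a and Mdm2 are shown in the same way, as the best-known targets, which did not pass. The Cdkn1a window chr17:29090729-29091028 (+ strand) belongs to the upstream of its 2 annotated starts and holds 3 decamers, a pair with no mismatch and a spacer of 12 bases and an adjoining pair with 1 mismatch. The window of its other start had no match. Mdm2 has 1 half-site in chr10:117710709-117711008 (- strand), 186 bases before the start.
Cdkn1a: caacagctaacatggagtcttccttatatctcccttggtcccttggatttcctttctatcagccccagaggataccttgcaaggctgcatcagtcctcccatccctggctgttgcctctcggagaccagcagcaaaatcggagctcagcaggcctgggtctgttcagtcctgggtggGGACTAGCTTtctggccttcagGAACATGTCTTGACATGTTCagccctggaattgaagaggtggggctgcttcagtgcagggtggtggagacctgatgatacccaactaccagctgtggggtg
Mdm2: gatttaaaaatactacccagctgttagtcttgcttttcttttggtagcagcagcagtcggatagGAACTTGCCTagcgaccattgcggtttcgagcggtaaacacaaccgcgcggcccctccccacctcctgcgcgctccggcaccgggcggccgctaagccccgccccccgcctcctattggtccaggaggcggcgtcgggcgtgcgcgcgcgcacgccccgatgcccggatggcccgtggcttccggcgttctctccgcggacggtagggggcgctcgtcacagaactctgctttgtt
Cdkn1a had the closest match to the consensus of these 4 windows, and its log2 fold change was 0.17. The windows were chosen after the values were seen, and a link between a match and the size of a change was not tested.

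The window of Phlda3, the gene with the largest rise, lies at chr1:135765835-135766134 (+ strand) and had no half-site or full site by these rules, nor had those of Dglucy and Psrc1. The end of the Phlda3 window, gaacatgt, matches the opening letters of the half-site. A decamer running past the window edge could not be counted. The Phlda3 window is shown, all in lower case, so that it can be set beside the others.
Phlda3: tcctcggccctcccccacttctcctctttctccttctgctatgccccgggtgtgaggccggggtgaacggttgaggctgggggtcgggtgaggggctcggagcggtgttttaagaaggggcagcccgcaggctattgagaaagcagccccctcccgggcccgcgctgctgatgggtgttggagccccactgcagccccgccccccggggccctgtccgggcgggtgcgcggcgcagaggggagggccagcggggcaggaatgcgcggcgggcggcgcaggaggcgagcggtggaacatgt
A site elsewhere in these genes was not searched for, and a match in a window is not evidence of binding.

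**Figure D5:**
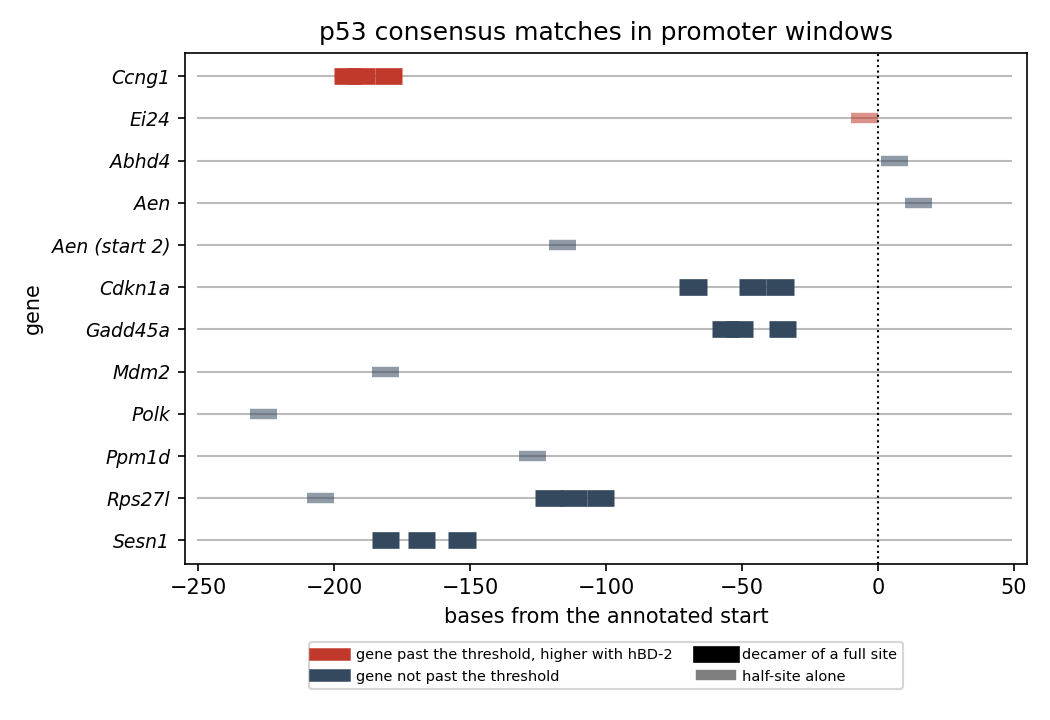
Positions of matches to the p53 consensus (blocks) in the promoter windows of the members that had one, in bases from the annotated start (x axis, dotted line at 0). Thick dark blocks are decamers of full sites, thin pale blocks are half-sites alone, red marks genes past the threshold and slate genes not past it. Ccng1 and Ei24 are the 2 red rows, and the other 10 are slate, with Aen drawn for both of its starts.

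Other targets that p53 is reported to switch on, mostly in human cells, had values on both sides of 0. Of 52 measured genes outside the list, 1 rose, 4 fell and 22 had log2 fold changes above 0, where the shares of all genes were 0.800%, 3.66% and 53.9%, with a median log2 fold change of -0.03 that turned to 0.04 with quantile normalization repeated, to 0.02 with cyclic loess and to 0.02 with the level trend removed, where 3 rose and 3 fell. Gtse1, a microtubule-binding protein of the G2 phase, was the gene that rose, at 9.40, 9.43, 9.20 and 9.38 with hBD-2, against 8.81, 8.82, 8.77 and 8.91 with PBS. Its groups did not overlap (1.44-fold, or 0.52 ± 0.0905 as log2 fold change ± SE, adjusted p = 0.00935 from limma), and the call held in all 8 omissions of a single array (highest limma adjusted p = 0.0355). Prdm1, which encodes a repressor that drives effector T cells, fell 2.68-fold (4.26 ± 0.397 with hBD-2 and 5.68 ± 0.229 with PBS, limma adjusted p = 0.00183). Cd82, a tetraspanin, and Nadsyn1, an enzyme of NAD synthesis, fell 1.35-fold each, and Acer2, an alkaline ceramidase, fell 1.41-fold. The calls of Cd82 and Nadsyn1 were each lost in 7 of the 8 omissions and that of Acer2 in 6 (highest limma adjusted p = 0.114, 0.108 and 0.128), and Cd82 also lost its call with each of the 3 ways of levelling.

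Genes that act above p53 were kinases, sensors and partners. Of 26 measured, none rose and 2 fell, where 0.800% and 3.66% of all genes did, with a median of -0.04 that turned to 0.02 with quantile normalization, 0.01 with cyclic loess and 0.02 with the level trend removed. Chek1, the checkpoint kinase of stalled replication, fell 1.41-fold, at 8.10 ± 0.228 with hBD-2 and 8.59 ± 0.0654 with PBS (limma adjusted p = 0.0380). Mre11a, a nuclease that senses double-strand breaks, was just inside the threshold, at 6.46 ± 0.295 with hBD-2 and 7.01 ± 0.130 with PBS (limma adjusted p = 0.0499). Both lost the call with quantile normalization, Chek1 in 6 and Mre11a in 7 of the 8 omissions of a single array (highest limma adjusted p = 0.105 and 0.131). Atm, the kinase that answers double-strand breaks, was at -0.48 on the log2 scale (adjusted p = 0.0571 from limma) and Mdc1, an adaptor at breaks, at -0.42 (adjusted p = 0.0632).

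p53 also lowers cell cycle genes, through p21 and the repressor complex DREAM. Of 17 measured genes of that kind, 2 fell and none rose, where 3.66% and 0.800% of all genes did, and the median was -0.30, or -0.21 with any of the 3 ways of levelling. None of the 17 had a log2 fold change above 0, as 53.9% of all genes had, and 1 did with quantile normalization. Mcm3 fell 1.58-fold (8.75 ± 0.244 with hBD-2 and 9.41 ± 0.0930 with PBS, limma adjusted p = 0.0131), and Mcm5 fell 1.39-fold (9.11 ± 0.226 with hBD-2 and 9.58 ± 0.0521 with PBS, limma adjusted p = 0.0432). Both encode subunits of the replicative helicase, and Mcm5 lost its call with each of the 3 ways of levelling and in 6 of 8 omissions. Aurkb, a mitotic kinase, and Cdk1, the kinase that starts mitosis, missed the threshold at -0.35 and -0.45 on the log2 scale (adjusted p = 0.0562 and 0.0635 from limma). The part of p53 or p21 in these lower values was not tested.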

How the data were processed

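Gene expression of mouse splenic T cells was measured on 8 Affymetrix arrays, 4 with hBD-2 and 4 with PBS. The authors deposited 1 table of log2 values for 22203 probe sets, with a column for each array. Processing with oligo and RMA is named per the submitters' processing notes, with no version, and the annotation build is not stated in the sources at hand. No scanner intensities were used, and the number of arrays limits the precision.

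The platform annotation named 19572 probe sets, and the other 2631 stay unnamed. Among several probe sets of a gene (55 genes) the brightest was kept, which left 19505 genes. hBD-2 was compared with PBS in R 4.3.3 by limma 3.58.1, using lmFit and eBayes without a block, with Benjamini-Hochberg adjustment over all genes at 0.05, and the fit was tested on simulated data. Alternatives were 3 ways of levelling the arrays, the replicate number as a block, other variance models, array weights, other choices of genes and probe sets, and arrays left out.

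The members, the other gene lists and their roles were chosen with earlier results of these data known. All members are accounted for. From the lists of upstream partners, other targets and genes lowered through p21, the 4 genes with the smallest p are named. Acer2, Cpa3, Fcer1a, Klf1, Itgam, Cd247, Kit, Lyz2 and Cd14 are named outside that rule, after their values were seen. Promoter sequences are RefSeq's (GRCm38.p6), chosen for printing after the values were seen. No protein sequences were used here.

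Deviations from the group means correlated across genes at 0.0048 to 0.181 for arrays with the same number. For arrays with different numbers the correlations were -0.154 to 0.0906. These ranges overlap and do not decide whether the numbers pair arrays. The animal of each array is unknown, so the main fit had no block, and the replicate number as a block was an alternative.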

Additional observations from a re-analysis of the deposited data

Results flagged for a closer look

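Groups of 4 arrays were examined gene by gene, and in each treatment for the mean over the called members, 94 in all. Of these, 7 held an array far from the other 3 of its group (Dixon's ratio of gap to range), where chance alone marks about 1 in 20. Tigar was higher on hBD-2 replicate 1, at 5.57, than on the other hBD-2 arrays at 5.30 to 5.32 (ratio 0.941). Plk2 was also highest on hBD-2 replicate 1, at 6.63, against 6.14 to 6.22 on the others (ratio 0.833). Btg2 was at 8.40 on hBD-2 replicate 4, against 8.15 to 8.19 (ratio 0.835). Bbc3 was lowest on PBS replicate 4, at 5.82, against 6.24 to 6.31 (ratio 0.847). Dglucy was highest on PBS replicate 3, at 5.83, against 5.67 to 5.70 (ratio 0.830), which lies on the side of the hBD-2 arrays. PBS replicate 3 was also the lowest PBS array for Prdm1, at 5.34, against 5.77 to 5.81 (ratio 0.911), and for Mcm3, at 9.27, against 9.44 to 9.47 (ratio 0.833).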

How the results depend on the processing

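Over 20 alternatives, no member passed as lower. The number that rose was 6, 4 to 6 with single arrays left out and 9 with each of the 3 ways of levelling. It was 7 with array weights (Dcxr added) and 10 with a variance trend and robust estimation. In that last fit Trp53inp1, Tnfrsf10b, Dcxr and Ercc5 were added (all genes: 479 higher and 1554 lower, against 156 and 713). It was 6 with either other choice of probe sets, which left the values of the members unchanged, because no member had several probe sets. With dim genes left out, 9 members rose (Dcxr, Trp53inp1 and Tnfrsf10b added), and 349 genes were higher and 1192 lower over the whole table, where fewer genes are tested. With the replicate number as a block, 7 members rose, Tnfrsf10b being added (limma adjusted p = 0.0486), and 159 genes were higher and 698 lower. Of the 8 arrays, 5 correlated best with their own number, as a hint from the data only.

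Phlda3, Dglucy, Zmat3 and Psrc1 kept their calls in every single omission (33 to 322 genes higher and 279 to 1074 lower over the whole table) and without hBD-2 replicates 3 and 4 together, where Ccng1 and Ei24 were lost and 16 genes were higher and 112 lower. In 2 alternatives chosen after seeing the data, replicates 2 and 4 of both groups, with the higher B cell markers, were left out (0 members rose, 0 genes higher and 8 lower), and then replicates 1 and 3 (1 member, Phlda3, 5 genes higher and 46 lower). These leave 2 arrays a group, and the 6 log2 fold changes stayed positive, at 1.21 and 1.08 for Phlda3 and 0.45 and 0.41 for Ccng1.

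Over these alternatives, signs turned for 12 members, all uncalled. With the arrays levelled by quantile normalization, cyclic loess and trend removal, Btg2 was at 0.0533, 0.0445 and 0.0426. Without hBD-2 replicates 3 and 4, Rps27l was at 0.0326, Sesn1 at -0.0970, Perp at -0.126, Rrm2b at 0.131 and Abhd4 at 0.0126. Without replicates 1 and 3, Ppm1d was at -0.0460, Btg2 at 0.0981, Plk2 at -0.0167, Fas at -0.0572, Aen at -0.0413 and Ddb2 at -0.0206, and without replicates 2 and 4 Bbc3 was at -0.0346. Fas was at -0.00490 with array weights. With single arrays left out, Btg2 ran from -0.103 to 0.0277, Sesn1 from -0.00903 to 0.172, Fas from -0.122 to 0.104, Aen from -0.0351 to 0.158 and Perp from -0.0824 to 0.148. The cause was not tested.

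Among the markers, the calls of Klf1, Itgam and Fcer1a were lost in 7, 7 and 4 of the 8 single omissions, and that of Cpa3 in none. Klf1 also lost its call with each of the 3 ways of levelling and Fcer1a with quantile normalization.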
